A study of Mus musculus with 12 samples.

Results

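Mcc, Esp4, Lrrc31, Ankrd36 and Hsh2d are 5 mouse genes whose RNA was far lower in embryonic stem cells that lacked a subunit of the HUSH complex than in wild-type cells. They are 5 of the 57180 genes listed in the deposited tables, and all 5 were among the 16840 genes with enough counts to be tested. They were selected on measured values, namely large falls in RNA level in 2 or 3 of the 3 null groups, in the same 12 libraries described here. Their differences from wild type are therefore given as a description, with no test. Mcc, Esp4 and Lrrc31 were low in all 3 null groups. Ankrd36 was low in the Tasor-null and Pphln1-null cells and near its wild-type level in the Mphosph8-null cells, while Hsh2d was low in the Mphosph8-null and Pphln1-null cells and near its wild-type level in the Tasor-null cells.

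The cells were mouse embryonic stem cells of the C57BL/6 strain. The groups were wild type (WT), cells null for Mphosph8, the gene of the protein MPP8 (MP8), cells null for Tasor (Tas) and cells null for Pphln1, the gene of periphilin (Pph). Each group had 3 libraries, made from total RNA with an Illumina TruSeq kit and sequenced on a NovaSeq instrument. The labels name no drug or stage of differentiation, and they give neither the way the null alleles were made nor the number of clones or cultures behind each group. A p-value here thus sets a difference against no more than the spread of libraries within their groups. This spread was estimated over all 12 libraries and may be technical.

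HUSH, the human silencing hub, is a chromatin complex built on TASOR, MPP8 and periphilin. MPP8 has a chromodomain that binds histone H3 methylated on lysine 9, TASOR holds the complex together, and periphilin binds RNA. The complex is known for silencing retroelements, retroviral insertions and other long transcription units with few introns, and its loss is best known for raising the RNA of its targets.

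Mcc (ENSMUSG00000071856) lies on chromosome 18, Esp4 (ENSMUSG00000095540) on chromosome 17, Lrrc31 (ENSMUSG00000074653) on chromosome 3, Ankrd36 (ENSMUSG00000020481) on chromosome 11 and Hsh2d (ENSMUSG00000062007) on chromosome 8. In GENCODE M21 the longest transcript of Mcc had 19 exons and 7858 spliced bases, that of Ankrd36 had 27 exons and 4491 bases, and that of Lrrc31 had 7 exons and 3284 bases. The longest Hsh2d transcript had 6 exons and 1824 bases. Esp4 had 1 transcript with 3 exons and 553 bases. All 5 are thus spliced genes in this annotation, which does not show the transcripts that held the reads.

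The 5 genes have no family in common. Mcc (mutated in colorectal cancers) encodes a coiled-coil protein known as a negative regulator of Wnt and beta-catenin signalling. Esp4 belongs to the exocrine gland-secreted peptides, a rodent family of which some members act as pheromones in tears and saliva. Lrrc31 encodes a leucine-rich repeat protein that has been studied in human epithelia. Ankrd36 encodes a protein with ankyrin repeats. Hsh2d encodes haematopoietic SH2 domain protein, an adaptor known from lymphocytes.

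Promoter sequences were found for 3 of the 5 genes and are shown because these genes shared a fall in Pph. They come from RefSeq on build GRCm38.p6 and run from 250 bases before to 50 bases after the start of the gene, 5′ to 3′ on the strand of the gene. CG dinucleotides are in capitals. The Lrrc31 window is chr3:30699794-30700093 on the minus strand, the Ankrd36 window chr11:5569434-5569733 on the plus strand and the Hsh2d window chr8:72189418-72189717 on the plus strand.
Lrrc31: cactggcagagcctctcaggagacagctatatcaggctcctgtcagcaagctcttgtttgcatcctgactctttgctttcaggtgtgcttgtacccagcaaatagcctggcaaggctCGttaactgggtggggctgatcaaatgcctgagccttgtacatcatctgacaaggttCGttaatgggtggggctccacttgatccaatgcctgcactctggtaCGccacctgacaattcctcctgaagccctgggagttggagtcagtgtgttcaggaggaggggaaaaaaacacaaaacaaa
Ankrd36: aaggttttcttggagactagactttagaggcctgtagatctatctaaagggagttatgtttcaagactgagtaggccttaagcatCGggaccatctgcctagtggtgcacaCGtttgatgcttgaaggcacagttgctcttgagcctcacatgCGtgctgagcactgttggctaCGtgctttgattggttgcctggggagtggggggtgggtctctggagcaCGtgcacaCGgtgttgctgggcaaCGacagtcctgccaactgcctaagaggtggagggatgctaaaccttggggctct
Hsh2d: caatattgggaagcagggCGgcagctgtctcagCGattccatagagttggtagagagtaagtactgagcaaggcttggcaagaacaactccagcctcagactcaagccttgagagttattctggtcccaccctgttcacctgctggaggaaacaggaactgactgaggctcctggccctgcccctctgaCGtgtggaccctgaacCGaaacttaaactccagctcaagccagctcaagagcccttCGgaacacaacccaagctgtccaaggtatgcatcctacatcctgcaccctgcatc

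These promoter windows were not rich in CG dinucleotides. Lrrc31 had 3, Hsh2d had 5 and Ankrd36 had 7, against a median of 7 over the 32851 promoters of the table. Of all promoters, 23.3% had fewer than Lrrc31, 38.0% fewer than Hsh2d and 47.9% fewer than Ankrd36. Motifs were counted as exact letters on either strand. TATAAA was in 0 of the 3 windows and in 13.6% of all promoters. CCAAT matched at 1 place in each of the 3 and was in 37.4% of all promoters. CCACCC, the core of a motif read by Klf factors, matched at 2 places in Lrrc31 and at 1 place each in Ankrd36 and Hsh2d, against 31.5% of all promoters with a match. GGGCGG was in the Hsh2d window only (35.7% of all promoters), and CACGTG in the Ankrd36 window only (7.15%). A match describes letters in the window and shows no binding.

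Library totals ranged from 17918770 to 21962079 estimated counts, so that 3 counts, the limit used for a count of 0, corresponded to at most 0.165 CPM. CPM here stands for counts divided by the TMM-scaled library size, and it serves to compare the same gene between groups. Each targeted transcript was lower in its own group. Mphosph8 was at 113 ± 3.23 CPM in WT and 0.306 ± 0.35 CPM in MP8, and Tasor went from 126 ± 2.7 CPM to 31.9 ± 1.19 CPM in Tas, and Pphln1 from 68.5 ± 2.91 CPM to 21.3 ± 1.66 CPM in Pph (mean ± SD, n = 3 for each). Without molecular identifiers on the reads, intervals and limits account for counting error alone. These are bulk samples, in which fewer cells with a transcript and less RNA per cell cannot be told apart.

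Mcc had the most reads of the 5 genes. Its level was 88.0, 97.3 and 95.3 CPM in the WT libraries and 21, 19.9 and 21.5 CPM in MP8. It was 23.6, 23.5 and 25.4 CPM in Tas and 19.4, 17.5 and 18.3 CPM in Pph. The 9 null libraries lay in a narrow band far below the 3 WT libraries. The group means were 93.5 ± 4.86 CPM in WT, and 20.8 ± 0.831, 24.2 ± 1.09 and 18.4 ± 0.928 in MP8, Tas and Pph (SD, n = 3 each). The null groups thus kept 22.2%, 25.9% and 19.6% of the WT level, with log2 fold changes of -2.17 ± 0.06 (SE) in MP8, -1.95 ± 0.05 in Tas and -2.35 ± 0.06 in Pph.

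Esp4 was lower still against its own WT level. It measured 15.4, 15.5 and 14.2 CPM in WT and 1.16, 2.09 and 2.02 CPM in MP8. It measured 2.33, 1.91 and 2.48 CPM in Tas and 1.25, 1.45 and 1.27 CPM in Pph. Every null library was below 3 CPM and every WT library above 14 CPM. The means were 15.1 ± 0.734 CPM in WT, and 1.76 ± 0.52, 2.24 ± 0.293 and 1.32 ± 0.111 in MP8, Tas and Pph (SD, n = 3). This left 11.7%, 14.9% and 8.79% of the WT level, and the log2 fold changes were -3.10 ± 0.15, -2.75 ± 0.15 and -3.50 ± 0.16 (SE).

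Lrrc31 measured 7.95, 9.62 and 8.52 CPM in the WT libraries and 0.453, 0.77 and 0.74 CPM in MP8. It measured 1.73, 1.76 and 0.825 CPM in Tas and 1.52, 1.30 and 1.62 CPM in Pph. The lowest levels were thus in MP8, and Tas replicate 3 stood near the MP8 libraries rather than near the other 2 Tas libraries. The means were 8.69 ± 0.848 CPM in WT, and 0.654 ± 0.175, 1.44 ± 0.533 and 1.48 ± 0.165 in MP8, Tas and Pph (SD, n = 3). The log2 fold changes were -3.72 ± 0.23 in MP8, -2.60 ± 0.20 in Tas and -2.55 ± 0.20 in Pph (SE). The 3 MP8 libraries held 38 counts of Lrrc31 together, against 548 in WT.

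Ankrd36 parted the null groups. It measured 13.7, 13.1 and 11.9 CPM in WT and 10.6, 10.9 and 11.2 CPM in MP8. It measured 0.758, 0.686 and 0.971 CPM in Tas and 0.326, 0.55 and 0.304 CPM in Pph. The MP8 libraries all lay just under the lowest WT library, while the Tas and Pph libraries lay below 1 CPM. The means were 12.9 ± 0.89 CPM in WT, and 10.9 ± 0.319, 0.805 ± 0.148 and 0.394 ± 0.136 in MP8, Tas and Pph (SD, n = 3), which are 84.2%, 6.23% and 3.05% of WT for the null groups. The log2 fold changes were -0.25 ± 0.10, -3.99 ± 0.16 and -5.01 ± 0.18 (SE). In the authors' deposited table the MP8 value was -0.24. The Pph value was the lowest of the 15 log2 fold changes of the 5 genes, and it rested on 23 counts in Pph against 817 in WT.

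Hsh2d had the fewest reads and parted the groups another way. Its estimated counts were 48, 38 and 45 in WT, 0, 5 and 2 in MP8, 51, 45 and 51 in Tas, and 4, 9 and 14 in Pph. Scaled, these were 2.21, 1.88 and 2.12 CPM in WT and 2.76, 2.21 and 2.48 CPM in Tas, which overlapped. They were 0, 0.275 and 0.0987 CPM in MP8 and 0.217, 0.45 and 0.71 CPM in Pph. No MP8 or Pph library reached the lowest WT library. Summed counts in MP8 were 5.79% of WT after scaling, with an exact 95% interval of 2.28% to 12.3%, and those in Pph were 22.4% of WT, with an interval of 14.2% to 34.1%. The log2 fold changes were -4.04 ± 0.45 in MP8, 0.26 ± 0.27 in Tas and -2.14 ± 0.35 in Pph (SE). MP8 replicate 2, with 5 of the 7 counts, decided the MP8 value, which was -5.21 without it.

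**Figure D1:**
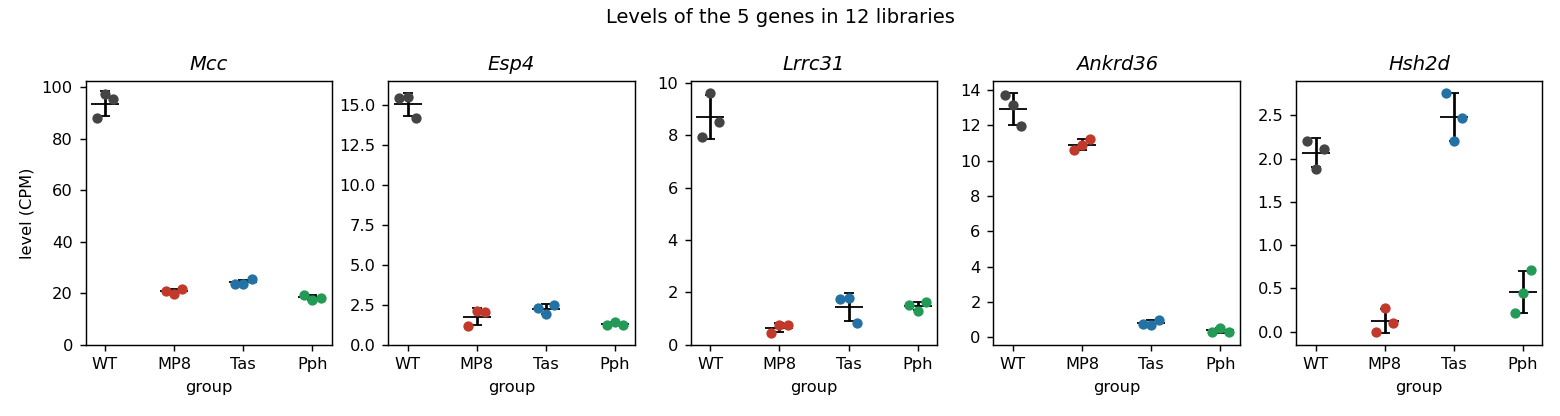
Level in CPM (vertical axis, linear, 1 panel per gene with its own scale) in the 4 groups (horizontal axis), with each point a library and the bar and whiskers the mean and SD of 3 libraries. Mcc, Esp4 and Lrrc31 are low in the 3 null groups, Ankrd36 is low in Tas and Pph and at 10.9 CPM in MP8, and Hsh2d is low in MP8 and Pph and at 2.48 CPM in Tas.

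In all 3 MP8 libraries the level was below all 3 WT libraries for 5 of the 5 genes, as it was for 34.1% of all tested genes. The count was 4 of 5 in Tas (28.9% of all tested genes) and 5 of 5 in Pph (27.1%). Falls of 2-fold or more were seen for 4 genes in MP8, 4 in Tas and 5 in Pph, where 4.38%, 3.62% and 2.24% of all tested genes were called lower by as much. In either direction, 62.2% of all tested genes were called in MP8, 51.8% in Tas and 56.3% in Pph. These counts follow from how the genes were chosen, and nothing is read from them. Over all tested genes, 317 (1.88%) were called lower by 2-fold or more in 2 or 3 null groups and 67 (0.398%) in all 3.

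**Figure D2:**
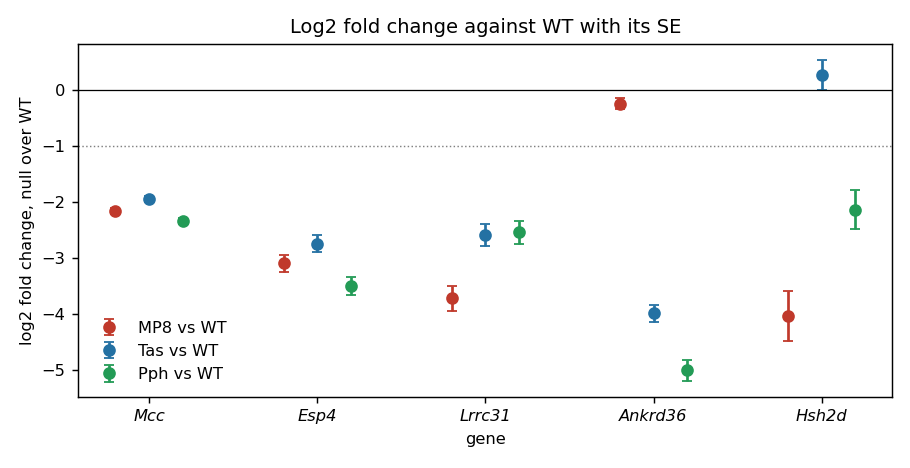
Log2 fold change of each null group over WT (vertical axis) for the 5 genes (horizontal axis), with the point the fitted value and the whisker its SE, and a dotted line at a 2-fold fall. The 3 values of Mcc lie within -2.35 to -1.95, whereas those of Ankrd36 run from -5.01 to -0.25 and those of Hsh2d from -4.04 to 0.26.

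All tested genes were ordered by the second-lowest of their 3 log2 fold changes, a measure that asks for a fall in at least 2 null groups. Ankrd36 was at rank 3, Esp4 at rank 7, Lrrc31 at rank 21, Mcc at rank 37 and Hsh2d at rank 40. High ranks follow from how the genes were chosen in these same libraries, and nothing is read from them. The nearest genes in this order that were neither predicted gene models nor among the 5 were as follows. Beside Ankrd36 were Pdcl2 at rank 2 (0.572 CPM in WT) and Slc15a2, a peptide transporter, at rank 4 (0.695 CPM in WT). Beside Esp4 were Mageb4 at rank 6 and Inhbb, an activin subunit, at rank 8, which changed by -3.10, -1.58 and -4.07 on the log2 scale in MP8, Tas and Pph. Klf4, a transcription factor of naive pluripotency, stood at rank 19 ahead of Lrrc31 with -2.64, -2.92 and -2.28, and Myo1g at rank 22. Wnt8a at rank 36 and Halr1 at rank 42 were the nearest such genes on either side of Mcc and Hsh2d. Klf4, Mcc, Esp4 and Lrrc31 were low in all 3 groups, whereas Pdcl2 (-4.62, -0.13 and -6.52) and Mageb4 (-3.57, -0.44 and -3.20) were, like Hsh2d, near WT in Tas.

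The null groups were compared with each other for each gene that was at or below 50% of WT in both. This left 11 comparisons, tested in the edgeR quasi-likelihood fit over all genes with Benjamini-Hochberg adjustment and a threshold of 0.05. Of these, 8 passed. The count was 2 of 3 for Tas against MP8, where 56.1% of all tested genes passed, 3 of 4 for Pph against MP8 (58.8%) and 3 of 4 for Pph against Tas (57.8%). The shares are near those of all genes, so that they say nothing particular about these genes.

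The order of the null groups differed between genes. Lrrc31 was lowest in MP8. In counts it was higher in Tas than in MP8 by 1.13 ± 0.29 on the log2 scale (edgeR adjusted p = 0.00167), although Tas replicate 3 was only just above the MP8 libraries. It was higher in Pph than in MP8 by 1.18 ± 0.29 (adjusted p = 0.00104), and CPM values did not overlap in either comparison. The deposited TPM values, which divide by transcript length, overlapped in both. They were 0.15, 0.42 and 0.69 in MP8, 0.89, 0.8 and 0.4 in Tas, and 0.51, 0.45 and 0.52 in Pph. Differences between null groups in TPM were not tested. Tas and Pph differed by 0.05 ± 0.25 (adjusted p = 0.885), within the spread of their libraries.

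Mcc was lowest in Pph and highest, among the null groups, in Tas. It was lower in Pph than in Tas by 0.40 on the log2 scale (-0.40 ± 0.07, edgeR adjusted p = 5.72e-06), and higher in Tas than in MP8 (0.22 ± 0.06, adjusted p = 0.00463). The difference between Pph and MP8 was smaller (-0.18 ± 0.07, adjusted p = 0.0234), and its call was lost when MP8 replicate 1 or 3 or Pph replicate 2 or 3 was left out (adjusted p up to 0.0992).

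Esp4 had the same order in counts, with Pph lowest. In deposited TPM Pph was lowest too, but MP8, at 1.18 ± 0.415 TPM, was above Tas, at 0.653 ± 0.202 TPM (SD, n = 3). The place of MP8 thus depended on the measure, and the differences below are those in counts. Pph was below Tas (-0.75 ± 0.21, edgeR adjusted p = 0.00306). Tas and MP8 did not pass the test (0.35 ± 0.20, adjusted p = 0.136), nor did Pph and MP8 (-0.40 ± 0.22, adjusted p = 0.124). MP8 replicate 1, at 1.16 CPM, lay below the other MP8 libraries, and without it Pph was lower than MP8 (-0.63 ± 0.22, adjusted p = 0.0151).

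Ankrd36 was lower in Pph than in Tas by 1.02 on the log2 scale (-1.02 ± 0.31, edgeR adjusted p = 0.00798), with 23 counts against 48. This call was lost without Tas replicate 3 (adjusted p = 0.0612) or Pph replicate 3 (0.0502). Hsh2d was higher in Pph than in MP8 (1.89 ± 0.59, adjusted p = 0.00715), on 27 counts against 7. Its call was lost without MP8 replicate 1 (1.31, adjusted p = 0.052) or Pph replicate 3 (1.44, adjusted p = 0.0718), and the difference was 3.07 without MP8 replicate 2. The other differences between null groups are partly fixed by the choice of the genes and are given with no test. Ankrd36 was lower than in MP8 by 3.74 on the log2 scale in Tas (-3.74 ± 0.16) and by 4.76 in Pph (-4.76 ± 0.19). Hsh2d was higher in Tas than in MP8 by 4.29 ± 0.44 (5.47 without MP8 replicate 2), and lower in Pph than in Tas (-2.40 ± 0.34).

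The deposited TPM values, which divide by transcript length, allow the genes to be set beside each other. In WT they were 21.8 ± 1.01 TPM for Mcc, 3.85 ± 0.996 for Lrrc31, 3.36 ± 0.366 for Esp4, 2.86 ± 0.35 for Ankrd36 and 1.74 ± 0.115 for Hsh2d (SD, n = 3). Lrrc31, Esp4 and Ankrd36 lay close to each other against their spread. TPM depends on the length used, which for Esp4 was 12.6 times the listed length, so its place among the 5 holds for the deposited TPM alone. In Pph the levels were 4.38 TPM for Mcc, 0.493 for Lrrc31, 0.483 for Esp4, 0.433 for Hsh2d and 0.157 for Ankrd36.

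TPM and counts gave unlike sizes of the fall for 3 of the genes. For Esp4 in MP8 the log2 ratio of mean TPM to WT was -1.51, against -3.10 from counts. It was -2.36 in Tas and -2.80 in Pph, against -2.75 and -3.50. For Ankrd36 in MP8 the sign turned, from -0.25 in counts to 0.18 in TPM. Its TPM ratios were -3.30 in Tas and -4.19 in Pph. For Lrrc31 the TPM ratios were -3.20 in MP8, -2.47 in Tas and -2.96 in Pph. For Mcc they were -2.25, -1.85 and -2.32, close to the count values, and for Hsh2d they were -3.94, 0.30 and -2.01.

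Count and TPM of the same gene and library together give the length by which the authors' software divided. This implied length was computed per library and scaled so that the median gene had the length listed in the tables. Hsh2d had an implied length of 1836 ± 4.59 bases in WT (SD, n = 3) and between 1793 and 1841 bases in every library with a count, next to its longest transcript of 1824 bases. Mcc had 6634 ± 101 bases in WT. For Esp4 it was 6957 ± 461 bases in WT, 12.6 times its listed length, and only 0.387% of the 14219 genes with at least 20 counts in WT had a larger ratio. In MP8 the implied length of Esp4 was 2502 ± 325 bases, a log2 difference of -1.48 from WT, and 0.131% of 13696 genes had a larger fall. It was 5728 bases in Tas and 5094 bases in Pph, with libraries from 3827 to 7308 bases.

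Ankrd36 had implied lengths of 7027 ± 364 bases in WT and 5563 ± 305 bases in MP8, both above its longest GENCODE M21 transcript of 4491 bases, and 4447 and 4309 bases in Tas and Pph. The 3 MP8 libraries, from 5230 to 5827 bases, lay below the WT libraries, from 6642 to 7365 bases. Lrrc31 had 3575 ± 485 bases in WT and 5110 ± 216 bases in Pph. Deposited TPM carries 2 decimals, so that lengths from the lowest levels are coarse. Which transcripts the reads came from cannot be read from the gene tables.

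**Figure D3:**
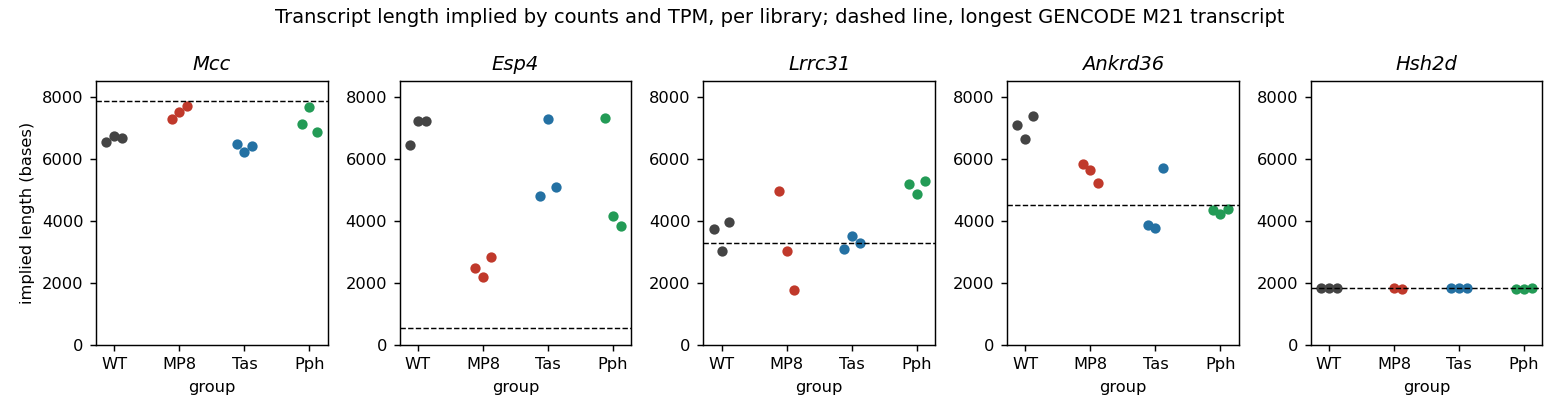
Transcript length in bases implied by counts and TPM (vertical axis, linear) in each library of the 4 groups (horizontal axis), 1 panel per gene, with a dashed line at the longest GENCODE M21 transcript. Hsh2d sits on its line in all groups, whereas Esp4 lies far above its line of 553 bases, at 6957 bases on average in WT and 2502 bases in MP8.

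Reads shared with other genes were looked at for each gene. At 90% identity or more over 100 bases or more of GENCODE M21 transcripts, Esp4 and Ankrd36 matched 0 other genes, and their closest alignments reached 81.9% and 69.0% identity. The aligned transcripts had at most 553 bases for Esp4 and 4491 for Ankrd36, below their implied lengths of 6957 and 7027 bases in WT. Sequence beyond these transcripts was not searched, so the search cannot show whether their counted reads are shared. Hsh2d matched 2 genes over short stretches, the longest of 101 bases. Lrrc31 matched 3 genes, the longest being 175 bases of Gm15462, which overlaps it on the opposite strand. Mcc matched 98 genes, mostly over short stretches, with 618 bases of A930012L18Rik on the opposite strand the longest. Whether reads were counted by strand is not given in the sources used here, so reads of Lrrc31 and Gm15462, and of Mcc and A930012L18Rik, cannot be told apart. The opposing genes were low, with 0.632 CPM for Gm15462 and 0.0797 CPM for A930012L18Rik in WT.

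The genes whose level followed each of the 5 most closely were found by Pearson's r of log2 CPM over the 12 libraries. These are descriptions, since the 12 libraries form 4 groups that share their cells and much of r reflects the group means. Mcc and Esp4 were each other's near neighbours, with r = 0.985. The gene closest to Mcc was mt-Rnr2, the mitochondrial large ribosomal RNA (r = 0.990), which went from 345 CPM in WT to 150, 158 and 124 CPM in MP8, Tas and Pph. Adsl, an enzyme of purine synthesis, followed with r = 0.981. For Esp4 the others were mt-Rnr2 (0.980) and Abcc4, a transporter of cyclic nucleotides (0.973).

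Lrrc31 went most closely with Nf2, the gene of merlin (r = 0.983), with Dppa3, a maternal factor and marker of naive pluripotency (0.976), and with Dgke, a diacylglycerol kinase (0.969). Dppa3 went from 32.8 CPM in WT to 6.82, 12.3 and 10.9 CPM in MP8, Tas and Pph, with MP8 lowest as for Lrrc31. Ankrd36 went most closely with Lef1, a transcription factor of the Wnt pathway (0.993), which stood at 11.9 CPM in WT, and 12.2, 3.08 and 1.71 in MP8, Tas and Pph. Chchd10 (0.978) and Adrm1 (0.973) followed, with far smaller changes. Hsh2d went most closely with Vegfb, a growth factor (0.977), with Irf9, a transcription factor of the interferon response (0.976), and with Ska1 (0.965). Irf9 stood at 10.3 CPM in WT, and 5.09, 11 and 6.43 in MP8, Tas and Pph.

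Genes with r above 0.95 numbered 38 for Mcc, 22 for Esp4, 20 for Lrrc31, 19 for Ankrd36 and 14 for Hsh2d. Among the 5 genes, Lrrc31 had r of 0.907 with Mcc and 0.90 with Esp4. Ankrd36 had 0.608 with Mcc, 0.295 with Lrrc31 and -0.15 with Hsh2d. Hsh2d had 0.541 with Mcc, 0.589 with Esp4 and 0.655 with Lrrc31. The genes were selected by the null groups in which they fell, in these same libraries, so these values restate that choice.

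**Figure D4:**
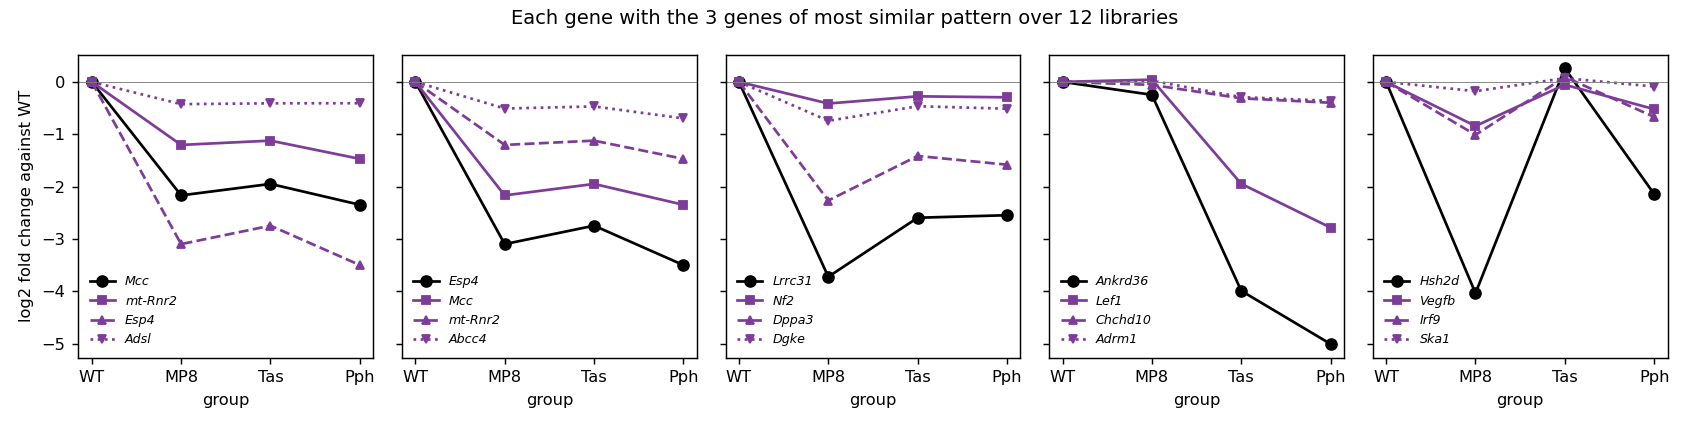
Log2 fold change against WT (vertical axis) in the 4 groups (horizontal axis, WT set to 0), with each of the 5 genes in black and the 3 genes of most similar level in purple. Lef1 runs beside Ankrd36, at 0.04 in MP8, -1.95 in Tas and -2.78 in Pph, while most other partners change far less than the gene they follow.

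The genes beside each of the 5 on the chromosome were examined by their order in RefSeq (GRCm38.p6), taking the nearest 5 tested genes on each side. Order alone was used, so distances ran from an overlap (Gm15462 with Lrrc31) to 3324 kb (H2-M3 from Esp4). Mecom lay 169 kb and Egfem1 987 kb from Lrrc31, and Crisp2 lay 162 kb from Esp4. Of these 50 neighbours, 16 fell and 15 rose in MP8, 14 fell and 17 rose in Tas, and 15 fell and 14 rose in Pph. In these comparisons 32.2%, 25.5% and 25.7% of all tested genes fell and 30.0%, 26.2% and 30.6% rose. The median log2 fold change of the neighbours was 0.01 in MP8, 0.00 in Tas and -0.06 in Pph. With 10 genes on each side, 35 of 100 fell and 33 rose in MP8, 23 fell and 37 rose in Tas, and 24 fell and 37 rose in Pph. The 5 neighbourhoods differed in these counts. Of the 10 nearest genes of Ankrd36, 6 fell and 2 rose in MP8, 6 fell and 0 rose in Tas, and 7 fell and 1 rose in Pph, and with 10 genes on each side 11, 11 and 12 of 20 fell. Over the 1232 other tested genes assigned to its chromosome, 11, the shares that fell were 40.9%, 32.2% and 34.1%. For Mcc 2, 3 and 2 of 10 fell in MP8, Tas and Pph, for Esp4 2, 4 and 1, for Lrrc31 3, 1 and 2, and for Hsh2d 3, 0 and 3.

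Lrrc31 was the only 1 of the 5 with neighbours, among the nearest 5 a side, that fell by 2-fold or more in 2 null groups. Lrrc34, another leucine-rich repeat gene and second on its left, fell from 21 ± 1.08 CPM in WT to 9.25 ± 0.513 in MP8 (log2 fold change -1.19 ± 0.08, edgeR adjusted p = 3.09e-13) and to 8.92 ± 0.386 in Pph (-1.24 ± 0.09, adjusted p = 2.02e-13). In Tas it stood at 21 ± 1.69 CPM (adjusted p = 0.992). Lrriq4, between the pair, had the same pattern, from 2.88 ± 0.443 CPM in WT to 0.95 ± 0.311 in MP8, 2.79 ± 0.551 in Tas and 1.28 ± 0.452 in Pph (adjusted p = 7.8e-06, 0.879 and 0.000295). Lrrc31 itself was low in Tas too, at 1.44 CPM. Further left, Mecom, a zinc finger transcription factor, rose from 5.55 ± 0.625 CPM to 71.9 ± 1.42 in MP8, 52.8 ± 2.87 in Tas and 32.9 ± 4.28 in Pph (adjusted p = 1.25e-16 or less). Egfem1 rose by 3.51, 3.58 and 2.29 on the log2 scale (adjusted p = 1.73e-08 or less). Gm15462 did not pass the test in any of the 3 groups (adjusted p = 0.13, 0.773 and 0.495).

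Esp4 lay beside a member of its own family that moved the other way. Esp6 rose from 0.503 ± 0.202 CPM in WT to 7.69 ± 1.89 in MP8, 5.39 ± 0.593 in Tas and 3.05 ± 0.277 in Pph (log2 fold changes 3.90 ± 0.24, 3.39 ± 0.25 and 2.58 ± 0.27, edgeR adjusted p = 2.39e-09 or less). Of the 16 listed Esp genes, Esp4 and Esp6 were the 2 with enough counts to be tested. On its other side Crisp2, a cysteine-rich secretory protein, stood at 0.227 ± 0.203 CPM in WT and at 1.14 ± 1.02, 1.37 ± 0.331 and 0.806 ± 0.494 CPM in the null groups, and did not pass the test (adjusted p = 0.0864, 0.0691 and 0.206). It passed in MP8 without MP8 replicate 2 (adjusted p = 4.65e-05), and in Tas when only Tas and WT entered the fit (6.69e-05).

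Mcc lay between genes that changed little. Dcp2, an mRNA decapping enzyme, rose slightly, by 0.29 ± 0.04, 0.24 ± 0.04 and 0.41 ± 0.04 on the log2 scale in MP8, Tas and Pph (edgeR adjusted p = 1.28e-05 or less). Ythdc2, a reader of methylated RNA on the other side, fell in Tas (-0.24 ± 0.07, adjusted p = 0.00772) and did not pass the test in MP8 or Pph (adjusted p = 0.649 and 0.945).

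Beside Ankrd36, Ccdc117 rose in MP8 (0.53 ± 0.04, edgeR adjusted p = 7.79e-12) and had -0.08 ± 0.04 in Tas (adjusted p = 0.158) and -0.14 ± 0.05 in Pph (adjusted p = 0.00967, and up to 0.0843 in the alternatives). Mrps24, a mitochondrial ribosomal protein, fell in all 3 groups by 0.61, 0.80 and 0.58 on the log2 scale (adjusted p = 6.3e-05 or less). Further left, Xbp1, a transcription factor of the unfolded protein response, had lower levels in Tas and Pph than in MP8, as Ankrd36 had. It stood at 73.1 ± 3.36 CPM in WT and 67.2 ± 1.86 in MP8 (-0.12 ± 0.04, adjusted p = 0.0187), and fell to 32.8 ± 0.618 in Tas (-1.16 ± 0.05, adjusted p = 8.19e-19) and 40.3 ± 1.56 in Pph (-0.86 ± 0.05, adjusted p = 8.53e-16). The predicted gene Gm11963 had 0.04 ± 0.31 in MP8 (adjusted p = 0.928), -0.92 ± 0.34 in Tas (adjusted p = 0.0255) and -0.82 ± 0.34 in Pph (adjusted p = 0.0425). The small call of Xbp1 in MP8 was lost in several alternatives (adjusted p up to 0.116), as were both calls of Gm11963 (up to 0.146 in Tas and 0.209 in Pph). WT replicate 1 left out gave the highest of each. Differences between these genes and Ankrd36 were not tested.

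The neighbours of Hsh2d were higher in Tas, the group in which Hsh2d was near its WT level. In Tas 9 of 10 rose and 0 fell, with a median log2 fold change of 0.54, against 3 rising and 3 falling in both MP8 and Pph. Rab8a, a small GTPase of vesicle transport, rose in Tas (0.38 ± 0.04, edgeR adjusted p = 6.55e-09) and fell in MP8 (-0.33 ± 0.04, adjusted p = 1.11e-07) and Pph (-0.30 ± 0.04, adjusted p = 7.87e-07). Fam32a rose in Tas (0.55 ± 0.04, adjusted p = 9.57e-13) and fell in Pph (-0.19 ± 0.04, adjusted p = 0.000242). Zfp961, a zinc finger gene, rose in all 3 groups (1.31, 1.13 and 0.59, adjusted p = 9.13e-12 or less).

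The shift in Tas reached beyond the Hsh2d neighbours. Over the 808 tested genes assigned to chromosome 8, the median log2 fold change in Tas was 0.30, against -0.01 over all tested genes, and 52.2% were called higher, where 26.2% of all tested genes were. In MP8 and Pph the chromosome 8 medians were -0.09 and -0.02. The chromosomes of the other 4 genes had Tas medians between -0.07 and -0.03. The fitted value of Hsh2d in Tas, 0.26, was thus close to the median of its chromosome, and the part of the chromosome-wide shift in it was not tested.

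**Figure D5:**
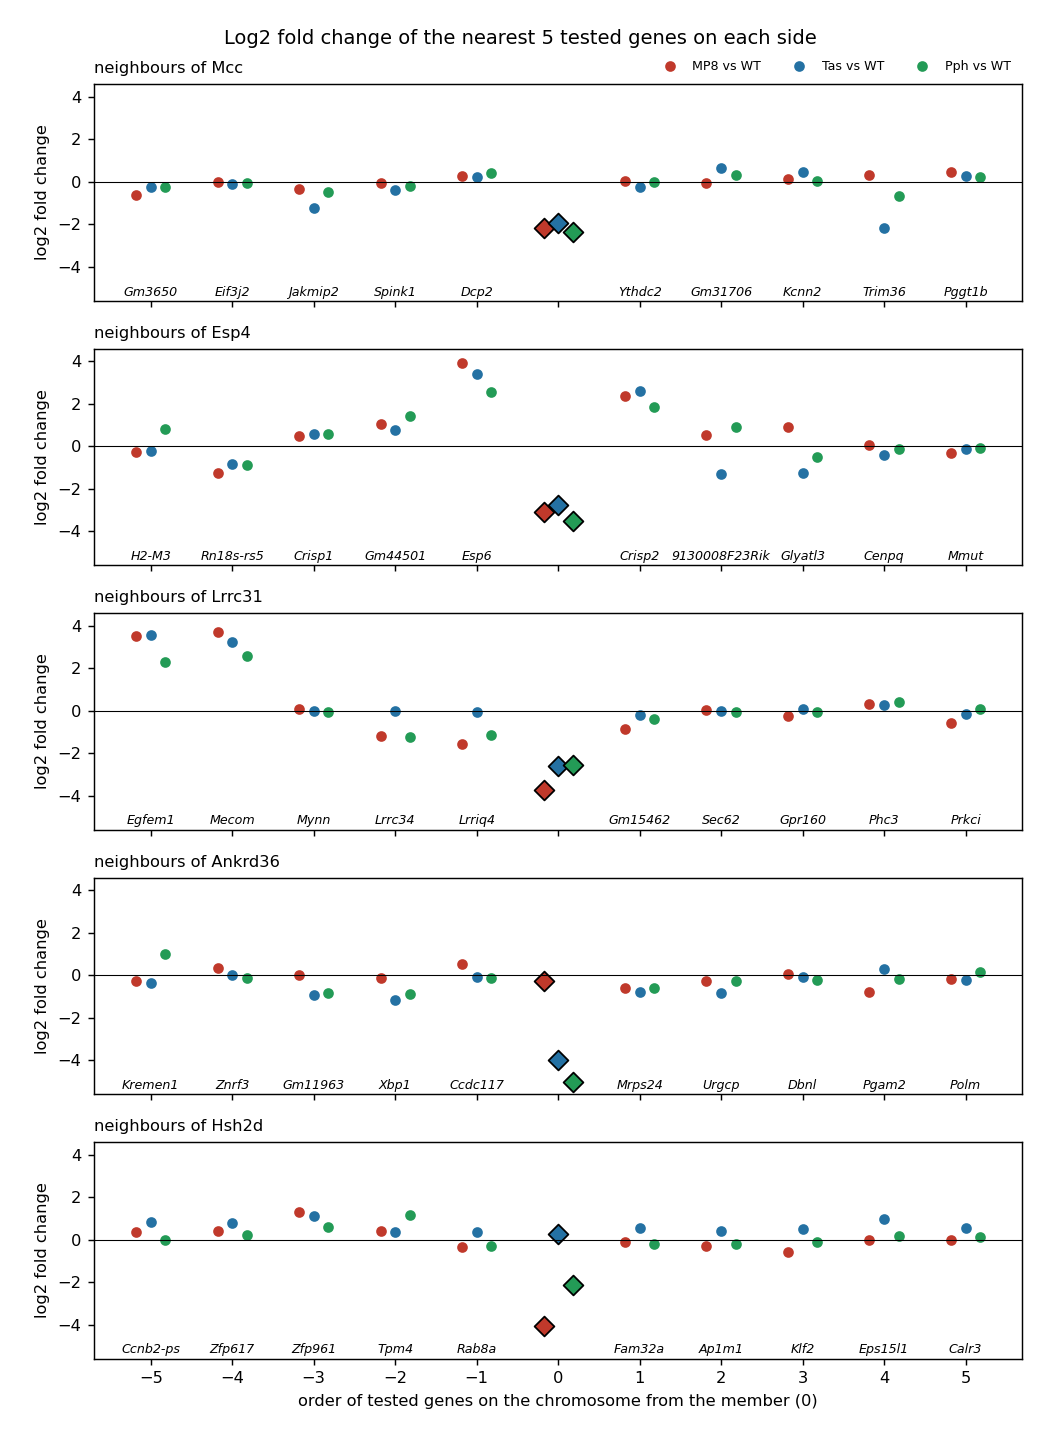
Log2 fold change of each null group over WT (vertical axis) for the nearest 5 tested genes on each side of each gene, in chromosome order (horizontal axis), with diamonds for the gene itself. Esp6 stands at 2.58 to 3.90 beside Esp4, Lrrc34 and Lrriq4 are low in MP8 and Pph beside Lrrc31, and the Tas points beside Hsh2d lie above 0.

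Gene groups of the 5 genes were counted without them. For Mcc, the Wnt and beta-catenin list had 32 tested genes, of which 13 fell and 7 rose in MP8, 8 fell and 9 rose in Tas, and 13 fell and 10 rose in Pph. Over all tested genes, as given above, 32.2%, 25.5% and 25.7% fell and 30.0%, 26.2% and 30.6% rose in the same order of groups. The list medians were -0.09, -0.03 and -0.03, against -0.02, -0.01 and 0.04 over all tested genes. By 2-fold or more, 3 were lower and 2 higher in MP8, 5 lower and 0 higher in Tas, and 4 lower and 0 higher in Pph. Of all tested genes 4.38%, 3.62% and 2.24% were called lower by as much. Ctnnb1, the gene of beta-catenin itself, was at 760 ± 23.4 CPM in WT and 754 ± 17, 726 ± 4.09 and 732 ± 10.8 CPM in the null groups. It did not pass the test (adjusted p = 0.0639 or more). In Tas it passed in 4 of 12 alternatives (lowest adjusted p = 0.0178, edgeR with library totals alone), and in Pph in 3 of 12 (lowest 0.0158, DESeq2). Among these was the fit without WT replicate 1, with log2 differences of -0.09 in Tas and -0.07 in Pph (edgeR adjusted p = 0.0187 and 0.0382). Lef1 fell in Tas (-1.95 ± 0.12, edgeR adjusted p = 2.28e-14) and Pph (-2.78 ± 0.14, adjusted p = 6.06e-17), and stood at 0.04 ± 0.10 in MP8. Sp5, a target of the pathway, fell in Tas (-2.31 ± 0.29, adjusted p = 9.22e-08) and Pph (-0.89 ± 0.25, adjusted p = 0.00308). Notum, a secreted Wnt inhibitor, fell in MP8 (-1.09 ± 0.08) and Pph (-1.92 ± 0.09; adjusted p = 5.17e-13 or less) and not in Tas (0.10 ± 0.07, adjusted p = 0.249). Apc2 fell in Tas (-1.93 ± 0.18, adjusted p = 1.21e-10), and its call in Pph (-0.36 ± 0.15, adjusted p = 0.0407) was lost in 6 of 12 alternatives.

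Among 40 other tested Lrrc genes, 14 fell and 11 rose in MP8, 11 fell and 5 rose in Tas, and 5 fell and 16 rose in Pph, with medians of -0.10, -0.16 and 0.27 against -0.02, -0.01 and 0.04 over all tested genes. Of all tested genes 32.2%, 25.5% and 25.7% fell and 30.0%, 26.2% and 30.6% rose. Changes of 2-fold or more went both ways, with 5 lower and 6 higher in MP8, 0 lower and 4 higher in Tas, and 2 lower and 7 higher in Pph. Lrrc2 fell in MP8 (-1.11) and Pph (-1.46; edgeR adjusted p = 5.1e-13 or less) and had 0.05 in Tas (adjusted p = 0.63), as its family member Lrrc34 did beside Lrrc31, and Lrrc56, Lrrc61 and Lrrc73 fell by 1.21, 1.13 and 1.16 in MP8 (adjusted p = 0.0064 or less). Lrrc7, which encodes densin, a synaptic protein, rose from 6.96 ± 1.23 CPM in WT to 146 ± 5.44 in MP8, 90.4 ± 5.7 in Tas and 47.2 ± 3.58 in Pph (edgeR adjusted p = 1.02e-14 or less). Lrrc69 rose by 4.23, 3.38 and 2.65 on the log2 scale (adjusted p = 2.07e-11 or less), and Lrrc4c, a netrin-G ligand, by 3.97, 3.0 and 2.55 (adjusted p = 4.69e-07 or less). Lrrc32 rose in Pph (1.99 ± 0.28, adjusted p = 4.08e-07).

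Of 34 other tested Ankrd genes, 9 fell and 10 rose in MP8, 8 fell and 6 rose in Tas, and 5 fell and 11 rose in Pph, with medians of 0.05, -0.03 and 0.07. These counts compare with 32.2%, 25.5% and 25.7% of all tested genes that fell and 30.0%, 26.2% and 30.6% that rose. In Tas 1 of them fell by 2-fold or more, and in Pph 0 did. That 1 was Ankrd34b (-1.30 ± 0.40 in Tas, edgeR adjusted p = 0.00686). Ankrd37, a hypoxia-responsive gene, fell in MP8 (-1.23 ± 0.15, adjusted p = 3.28e-08), Ankrd1 rose in MP8 and Pph (2.46 ± 0.66 and 4.86 ± 0.50, adjusted p = 0.00187 or less), and Ankrd33b rose in Pph (1.10 ± 0.21, adjusted p = 5.27e-05).

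Of 17 other tested SH2 adaptor genes, 6 fell and 3 rose in MP8, 6 fell and 1 rose in Tas, and 3 fell and 11 rose in Pph, with medians of -0.29, -0.13 and 0.33. Over all tested genes 32.2%, 25.5% and 25.7% fell, 30.0%, 26.2% and 30.6% rose, and the medians were -0.02, -0.01 and 0.04. In MP8 and Tas 0 of them changed by 2-fold or more, and in Pph 1 did, Sh2d4a, which rose (1.30 ± 0.28, edgeR adjusted p = 0.000179). Sh2d3c rose in Pph too (0.83 ± 0.11, adjusted p = 2.09e-07), and Shf fell in all 3 groups (-0.52, -0.38 and -0.70, adjusted p = 0.00449 or less). Sh2d4b stood at 0.87 ± 0.33 in Pph (adjusted p = 0.0273), a call lost in 8 of the alternatives, among them each in which a WT or Pph library was left out.

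The identity of the cells was checked with marker genes. All 8 embryonic stem cell markers were tested. Of them 8 fell and 0 rose in MP8, 5 fell and 2 rose in Tas, and 7 fell and 0 rose in Pph. Of all tested genes 32.2%, 25.5% and 25.7% fell and 30.0%, 26.2% and 30.6% rose in the same order of groups. The 8 markers summed to 3111 to 3298 CPM in WT, and 2453 to 2507, 3110 to 3132 and 2470 to 2608 in MP8, Tas and Pph. Klf2, 1 of the 2 that rose in Tas, is a neighbour of Hsh2d on chromosome 8. It went from 449 ± 24 CPM in WT to 642 ± 11.1 in Tas (log2 fold change 0.51 ± 0.04, edgeR adjusted p = 5.8e-11). The Tas sum thus includes this rise, and the part of the chromosome 8 shift in it was not tested. Of the 12 blood markers, 3 had enough counts to be tested and 3 had at most 3 counts in every library (Ms4a1, Lyz2 and Hbb-bs). The 12 markers summed to 17.9 to 19.2 CPM in WT, and 19.7 to 22.5, 18.8 to 19.2 and 24.6 to 26.3 in MP8, Tas and Pph. Of the 10 markers of exocrine and secretory epithelium, 5 were tested, and the salivary gland markers Pip and Bpifa2 were at 0 in every library. In all, 3 of the 10 had at most 3 counts in every library. The 10 markers summed to 344 to 354 CPM in WT, and 268 to 278, 286 to 292 and 440 to 455 in MP8, Tas and Pph. This sum does not show which of the 10 made it up. Of the 5 tested, 3 fell and 1 rose in MP8, 3 fell and 0 rose in Tas, and 0 fell and 4 rose in Pph. The 9 feeder fibroblast markers summed to 16.2 to 16.7 CPM in WT, and 24.2 to 25.8, 12.5 to 14.7 and 47.6 to 48.1 in MP8, Tas and Pph. Of the 7 tested, 0 fell and 3 rose in MP8, 3 fell and 0 rose in Tas, and 0 fell and 6 rose in Pph. As given above, 32.2%, 25.5% and 25.7% of all tested genes fell and 30.0%, 26.2% and 30.6% rose. The part of these marker levels in the levels of the 5 genes was not tested.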

How the data were processed

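RNA of 12 libraries in 4 groups was measured by sequencing. Per the submitters' processing notes, the tools were RSEM, HISAT2 2.1.0, FastQC and DESeq 1.26.0 with the build GRCm39, their roles and order not given. Per the file headers, the 3 deposited tables, each of 1 null group with WT, gave expected counts (estimated reads per gene, not normalized) and TPM per library. The authors also deposited the ratio (fold) of each null group to WT, its log2 and a p-value, and the gene length in bases. Fractional values made up 32.5% of the deposited nonzero counts (tolerance 1e-09). WT values differed by at most 0 between tables and entered once. Columns were matched to libraries by name, with 0 left unmatched.

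Counts were rounded and fitted in edgeR 4.0.16 (limma 3.58.1, R 4.3.3) after filterByExpr by group, with TMM scaling and a robust quasi-likelihood fit of group means over 12 libraries (8 residual degrees of freedom), and Benjamini-Hochberg adjustment within each comparison. "Called", "rose" and "fell" mean an adjusted p below 0.05. CPM uses the scaled library size, and SE is the log2 fold change divided by the square root of F. The steps were tested on simulated data. Chi-square per degree of freedom between libraries of a group was 1.92 to 6.35, so none was counted as a repeat. Replicate numbers are not said to pair libraries.

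The members, gene lists and tests were chosen with earlier results of these data known. Besides the 5 genes, those named are the 3 with the highest r per gene (log2 CPM, prior count 2; predicted gene models left out), the adjacent tested genes and others of the nearest 5 a side that changed 2-fold or more in 2 or 3 null groups, up to 4 called genes per list with the largest change, and the nearest genes in rank, with predicted gene models left out. Ctnnb1, Xbp1, Gm11963, Lrrc2, Lrrc56, Lrrc61, Lrrc73 and the overlapping genes were named beyond this rule, after their values were seen. The alternatives were DESeq2 1.42.0 and its size factors, library totals alone, no low-count filter, the replicate block, only the groups compared, and each library left out in turn.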

Additional observations from a re-analysis of the deposited data

Results flagged for a closer look

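For 8 of the 11 differences tested between null groups, the test passed, so that the fall against WT differed in size between the groups compared. Among all tested genes 56.1% passed for Tas against MP8, 58.8% for Pph against MP8 and 57.8% for Pph against Tas. The number of passes thus says nothing particular about these genes. On the log2 scale, Lrrc31 was higher than in MP8 by 1.13 in Tas and by 1.18 in Pph, and Hsh2d was higher in Pph than in MP8 by 1.89. For Lrrc31 the libraries compared did not overlap in CPM but did overlap in TPM. Mcc was higher in Tas than in MP8 by 0.22, and it differed by -0.18 between Pph and MP8 and by -0.40 between Pph and Tas. Between Pph and Tas, Esp4 differed by -0.75 and Ankrd36 by -1.02. The differences of Hsh2d, of Ankrd36 and of Mcc between Pph and MP8 are those whose call was lost when a library was left out.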

How the results depend on the processing

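The counts of called genes in the 6 comparisons stayed within 1.5 times under all 72 combinations of comparison and alternative. Leaving out 1 library gave 9771 to 10193 calls for MP8 against WT, 7833 to 8463 for Tas and 8742 to 9151 for Pph. Ankrd36 in MP8 turned from -0.25 in counts to 0.18 in TPM, and the cause was not tested. Small differences that did not pass the test also changed sign when 1 library was left out, among them Lrrc31 between Pph and Tas (-0.24 to 0.23) and Lef1 in MP8 (-0.02 to 0.08). Same-numbered libraries had correlations of -0.22 to 0.09 and 4 of 12 correlated best with their own number, so the numbers were not taken to pair the libraries. With the replicate number as a block, the 10477 calls in MP8 became 10303, the 8717 in Tas became 8533 and the 9482 in Pph became 9327, and the block changed no call of the 11 tests between null groups. Hsh2d in Pph against MP8 was not tested in the fit of those groups alone, where it did not pass the filter. Depth limits Hsh2d most, with 7 counts in MP8, and Ankrd36, with 23 in Pph.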
